A study of Mus musculus with 5 samples.

Results

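Extracellular matrix and fibroblast genes were followed in the messenger RNA of sorted cardiac macrophages. They comprised 42 genes of the 21289 in the deposited count table, taken by gene symbol from a list of collagens, small proteoglycans, elastic fibre genes, matrix enzymes and fibroblast or myofibroblast markers, and all 42 symbols were found. The cells were CD45+CD64+ cells, a gate for monocytes and macrophages, sorted on day 7 after myocardial infarction from the hearts of male wild-type mice of the C57BL/6JGpt strain. Curcumol, a plant sesquiterpene from turmeric relatives, was given by mouth (oral gavage, 30 mg/kg, once daily for 7 days) in 3 of the samples, and the other 2 came from infarcted mice that did not receive it. No sample from an uninjured heart was among the 5, and the labels do not say whether a sample was 1 animal or a pool, so the p-values rest on a spread between samples that may be technical.

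Fibrillar collagens are secreted as procollagen trimers, trimmed at their ends and cross-linked outside the cell into the fibres that give tissue its tensile strength. In the heart this matrix is made mainly by fibroblasts, which after infarction turn into myofibroblasts and lay down the collagen scar, while macrophages clear debris, signal to the fibroblasts and take up matrix fragments. Fibroblasts lack CD45 and lie outside the sorting gate. In bulk RNA, more or fewer cells of a type and more or less RNA per cell cannot be told apart.

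Libraries held 39768705 to 43315822 counts, and the number of genes with any count was 12243 and 12915 without curcumol and 17188, 17078 and 18501 with it. Markers of macrophages were abundant in every library: 12 of them, Csf1r and Cd68 among them, summed in CPM (counts scaled to a library total of 1e+06) to 42846 and 43620.0 CPM without and 48992, 46539 and 44509.9 CPM with curcumol. Lyz2 made up the largest part of this sum, with means of 23608 and 23265 CPM (untreated, then curcumol). The means of Csf1r were 1348 and 2117 CPM and those of Cd68 3160 and 2042 CPM, and neither overlapped between the groups. Levels below are CPM by total counts, and each SD is taken over 2 samples without or 3 with curcumol. A count of 3, used as the floor for genes without counts, was worth 0.0693 to 0.0754 CPM. Log2 fold changes (curcumol minus untreated) are given ± SE from edgeR's quasi-likelihood test over all genes, and a gene passed with an adjusted p under 0.05.

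Most of the matrix genes had more counts with curcumol, but few differences passed the test. For 27 of the 42 genes (64.3%) every curcumol library lay above both untreated libraries, against 30.2% of all genes with a count and 36.6% of those tested. For 2 genes (4.76%), Col15a1 and Gsn, every curcumol library lay below, against 6.73% and 9.31%. The other 13 genes overlapped between the groups. Of the 27 higher genes, 13 had no untreated count. Among the 16 genes counted in both untreated libraries, 7 (43.8%) lay above throughout and 2 below. By mean level with curcumol, 1 of 4 lay above at 0.3 to 1 CPM and 3 of 7 at 1 to 3 CPM, against 52.7% and 43.9% of all genes. At 3 to 10, 10 to 30 and 30 to 100 CPM it was 12 of 17, 7 of 9 and 4 of 4. The shares of all genes there were 37.9%, 35.5% and 32.2%. The ratio of group means, with means under the floor set to it, had a median of 3.45 on the log2 scale over the 42 genes and 0.38 over the 17003 genes with a mean above the floor.

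Of the 41 genes tested, Dcn and Lum rose and none fell. Over all 14508 tested genes 0.207% passed, 0.0689% as higher and 0.138% as lower. Before adjustment, 23 of the 41 were higher and 1 lower at p under 0.05 (18.1% and 6.51% of all tested genes). Of these 23, 13 had no untreated count, passed the filter through the curcumol libraries and could only come out higher. Of the 16 genes counted in both untreated libraries, 6 were higher and 1 lower. DESeq2 called 25 of the 42 higher and 1, Gsn, lower, against 12.5% and 4.38% of the genes it adjusted. With limma-voom 17 were called higher and 1 lower, against 9.72% and 1.73%. Among the higher calls of each method, 13 were genes without an untreated count. Of the 16 genes counted in both untreated libraries, DESeq2 called 7 higher and 1 lower, and limma-voom 1 higher and 1 lower. Fmod, which reached the minimum count of 10 in curcumol replicate 3 alone, did not pass edgeR's filter on low counts. The calls of Dcn and Lum ended without any 1 of the curcumol libraries, with total counts as the scaling (adjusted p = 0.0560 for both) and with the replicate number as a block. With only 1 untreated library in the fit, 25 of the genes were called without untreated replicate 1 and 27 without replicate 2.

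**Figure D1:**
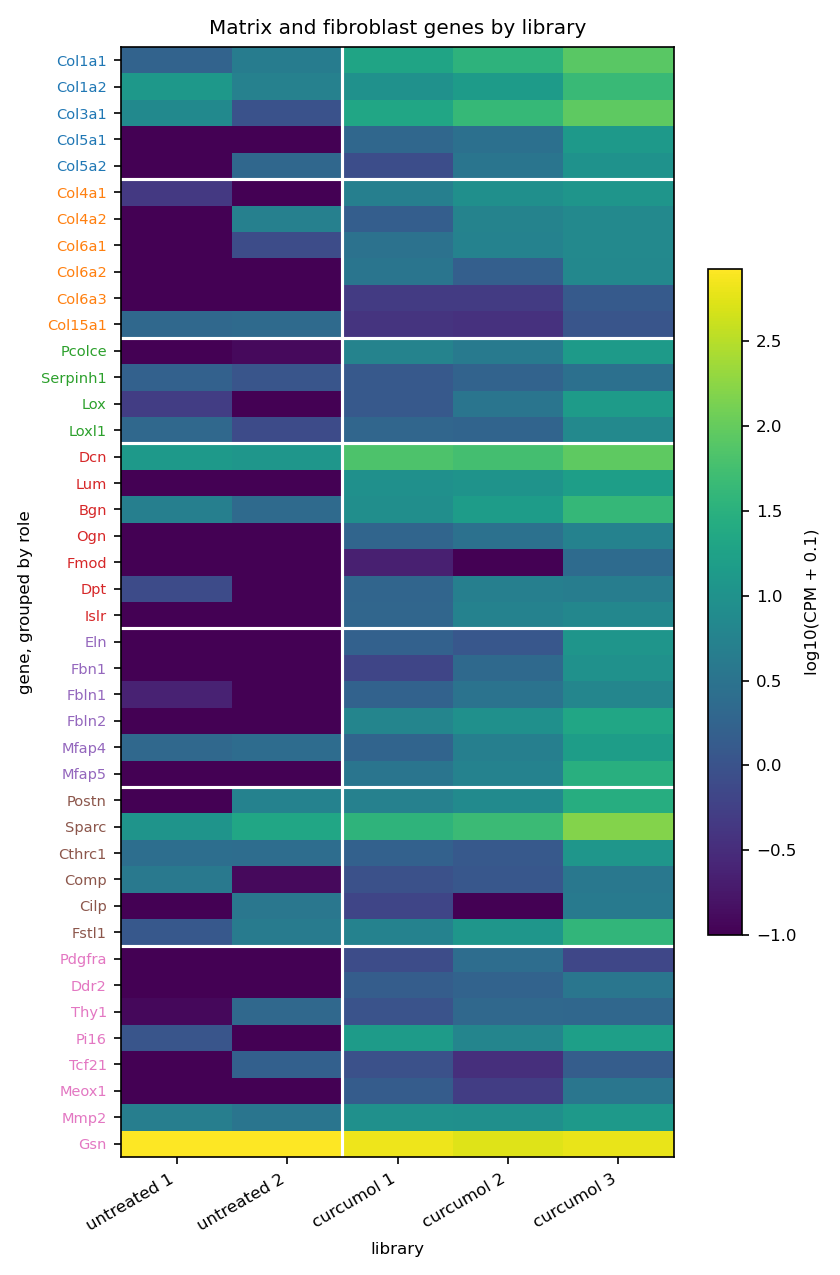
Level of each of the 42 genes (rows, grouped by role and coloured by it) in each library (columns), as log10(CPM + 0.1). The 14 genes without an untreated count are at the dark end of the scale in both untreated columns, and among the curcumol columns replicate 3 is brightest for 38 of 42 genes; Gsn, in the last row, is high throughout.

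The libraries also differed in which genes were detected. No count was found in either untreated library for 14 genes (33.3%), close to the 31.1% of all genes with a count. These were Col5a1, Col6a2, Col6a3, Lum, Ogn, Fmod, Islr, Eln, Fbn1, Fbln2, Mfap5, Pdgfra, Ddr2 and Meox1, with mean levels of 0.662 to 13.0 CPM with curcumol. At like levels the shares lay apart in some ranges and not in others. At a mean of 0.3 to 1 CPM in the curcumol libraries it was 2 of 4 matrix genes and 48.5% of all genes, and at 1 to 3 CPM 3 of 7 and 23.5%. Among genes with a mean of 3 to 10 CPM in the curcumol libraries, 6 of 17 matrix genes (35.3%) and 5.48% of all 2337 genes had no untreated count. At 10 to 30 CPM it was 3 of 9 matrix genes (33.3%) and 0.249% of 3216 genes. Binned instead by the mean of all 5 libraries, the shares at 3 to 10 CPM were 4 of 15 genes (26.7%) and 2.27%, and at 10 to 30 CPM 0 of 4 genes and 0.0632%. The ranges set by the curcumol mean use the group in which most of these genes were higher. In the untreated libraries 21 and 23 of the 42 genes had a count, in the curcumol libraries 42, 40 and 42.

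The curcumol libraries also differed among themselves. Replicate 3 was the highest of the 3 curcumol libraries for 38 of 42 genes (90.5%), where it was highest for 36.4% of all tested genes. Gsn alone took most of the summed level of the 42 genes, so the sum was taken over the other 41. It stood at 71.4 and 81.1 CPM without and 259.8, 339 and 852 CPM with curcumol. All 3 curcumol libraries lay above the untreated ones, with a ratio of means of 6.34 (exact permutation test, two-sided p = 0.2, where 2 against 3 samples cannot go below 0.1). Without curcumol replicate 3 the ratio was 3.93. With Gsn the sum overlapped between the groups, at 916 and 906 CPM without and 929.8, 876 and 1479.5 CPM with curcumol (exact permutation p = 0.8).

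The fibrillar collagens, which form the fibres of the scar, split by chain. Col1a1, the alpha-1 chain of type I collagen (NCBI gene 12842), stood at 1.66 and 4.37 CPM without curcumol and 19.6, 34.4 and 84.9 CPM with it. The groups did not overlap, and the means differed 15.4-fold (log2 fold change 3.75 ± 0.79, adjusted p = 0.0659). Col1a2, its partner chain in the type I trimer, stood at 12.2 and 5.16 CPM without curcumol and 9.69, 14.3 and 45.2 CPM with it. Here untreated replicate 1 lay above curcumol replicate 1, and the fold was 2.66 (log2 fold change 1.20 ± 0.76, adjusted p = 0.395). Type I collagen is built from a pair of alpha-1 chains and a single alpha-2 chain. Per kilobase of transcript, Col1a1 stood to Col1a2 at 0.123 (95% exact counting interval 0.0949 to 0.158) and 0.763 (0.623 to 0.934) in the untreated libraries. With curcumol the ratio was 1.82, 2.17 and 1.70, with intervals from 1.60 to 2.39 that did not reach the untreated ones (exact permutation test over samples, p = 0.1, the smallest possible, and 0.2 after adjustment over the 2 ratios tested). The intervals cover counting error only.

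Col3a1, the chain of type III collagen that is laid down early in scars, stood at 7.20 and 0.864 CPM without curcumol and 21.2, 42.2 and 88.7 CPM with it. Its groups did not overlap either, with curcumol replicate 3 highest (log2 fold change 3.43 ± 1.04, adjusted p = 0.0996). The untreated libraries disagreed on its level relative to Col1a1. Per kilobase the ratio of Col3a1 to Col1a1 was 4.62 in untreated replicate 1 and 0.211 in replicate 2, and the curcumol ratios of 1.16, 1.31 and 1.11 lay between these (exact permutation p = 0.7). Col5a1 and Col5a2, the chains of type V collagen that starts type I fibrils, were at lower levels. Col5a1 had no untreated count and 1.97, 2.72 and 13.4 CPM with curcumol, which was at least 85.5-fold higher than the untreated floor (adjusted p = 0.0659). Col5a2 overlapped, with 0 and 80 counts without curcumol and 31, 132 and 392 counts with it (log2 fold change 2.07 ± 1.97, adjusted p = 0.595).

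The promoters of Col1a2 and Col3a1 are shown as those of a fibrillar chain that overlapped between the groups and of one that did not. They come from the RefSeq promoter table of GRCm38.p6, which held 28 of the 42 genes and lists neither Col1a1 nor Dcn nor Lum. Each line gives the 250 bases before the annotated start, 5′ to 3′ on the plus strand, with CCAAT boxes (also as ATTGG, the other strand) and TATAAA in capitals.
Col1a2, chr6:4505368-4505617: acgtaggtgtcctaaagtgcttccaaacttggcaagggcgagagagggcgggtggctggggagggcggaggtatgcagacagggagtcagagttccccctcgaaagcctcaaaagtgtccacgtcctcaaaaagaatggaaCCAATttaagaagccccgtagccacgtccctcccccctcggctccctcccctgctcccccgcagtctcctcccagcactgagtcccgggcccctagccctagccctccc
Col3a1, chr1:45311288-45311537: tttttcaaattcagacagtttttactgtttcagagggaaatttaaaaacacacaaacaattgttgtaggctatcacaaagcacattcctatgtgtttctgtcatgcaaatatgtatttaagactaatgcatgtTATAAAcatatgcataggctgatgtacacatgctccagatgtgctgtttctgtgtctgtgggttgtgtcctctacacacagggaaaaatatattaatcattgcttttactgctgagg
The Col1a2 window held 1 CCAAT, beginning 109 bases before the start, and no TATAAA. The Col3a1 window held 1 TATAAA, beginning 117 bases before the start, and no CCAAT. Over the 33 windows of the 28 genes, 6 held CCAAT on one strand or the other (18.2%, against 33.8% of all 32851 windows of the table), 4 TATAAA (12.1% against 12.4%) and 15 the Sp1-type GGGCGG (45.5% against 32.7%). None of the motifs contains another. Gsn has 3 of these windows, and Postn, Col6a2 and Fbln1 have 2 each, and windows of 1 gene can share sequence. A match describes letters only, not a site in use.

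Among the basement membrane and microfibrillar collagens 4 of 6 genes had higher libraries throughout with curcumol and 1 lower. Col4a1 and Col4a2 encode the chains of the type IV network under endothelium and around muscle cells. Their genes start 21 bases apart on opposite strands in the RefSeq table, so they share a promoter region. Col4a1 had 15 and 0 counts without curcumol and 200, 361 and 443 counts with it (log2 fold change 5.33 ± 1.59, adjusted p = 0.0968). Col4a2 had 0 and 207 counts without curcumol and 57, 231 and 272 counts with it (log2 fold change 0.71 ± 1.85, adjusted p = 0.870). The untreated libraries thus gave opposite pictures of this pair: replicate 1 held counts of Col4a1 only and replicate 2 of Col4a2 only. All 3 curcumol libraries held both.

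The 3 listed chains of type VI collagen, a beaded filament around cells, all had every curcumol library above the untreated ones without passing the test. Col6a1 had 0 and 30 counts without curcumol and 121, 221 and 272 counts with it (log2 fold change 3.62 ± 1.73, adjusted p = 0.258). Col6a2 and Col6a3 had no untreated count and stood at least 54.4-fold higher and at least 9.37-fold higher against the floor, with adjusted p = 0.0651 and 0.0768. Col15a1, a collagen of the basement membrane zone, went the other way. It stood at 2.03 and 2.16 CPM without curcumol and 0.292, 0.268 and 0.981 CPM with it, 4.08-fold lower by the means, and did not pass (log2 fold change -2.22 ± 0.98, adjusted p = 0.224). It was the only collagen of the 11 whose curcumol libraries all lay below the untreated ones.

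**Figure D2:**
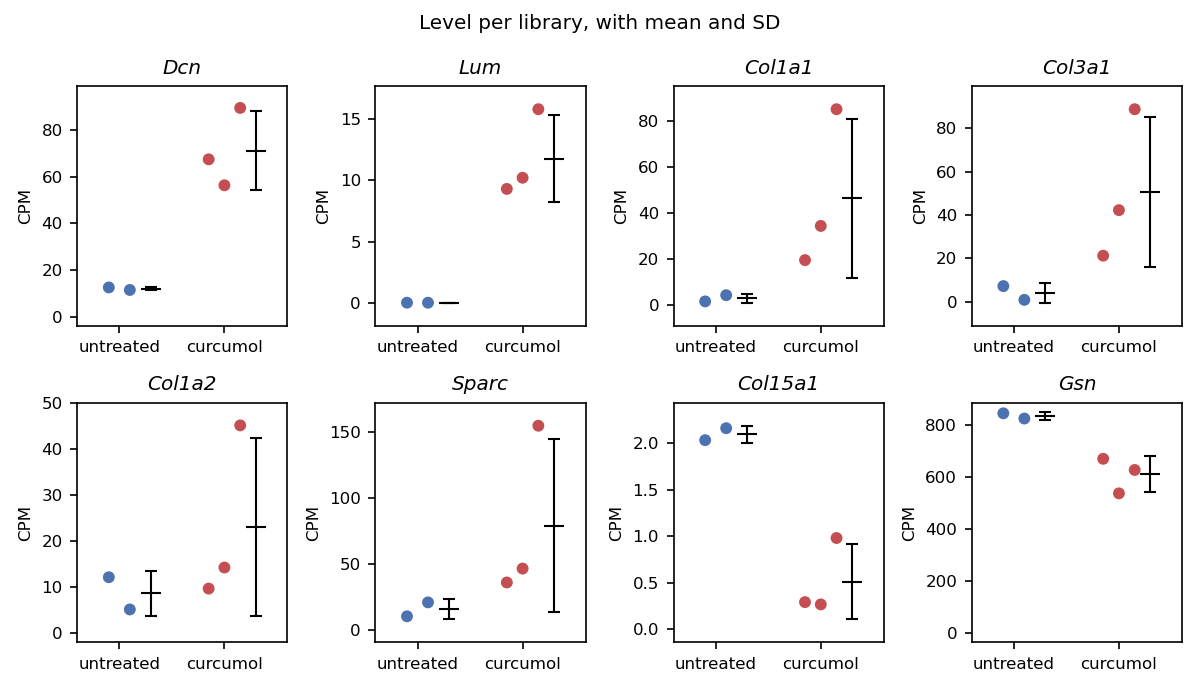
CPM of 8 genes in each library (blue points untreated, red points curcumol; black lines are mean ± SD, n = 2 and 3). Dcn, Lum, Col1a1, Col3a1 and Sparc separate the groups upward, Col15a1 and Gsn downward, and Col1a2 overlaps.

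Of the genes for collagen folding, trimming and cross-linking, Pcolce had the smallest p. Pcolce, which speeds the removal of the procollagen C-terminal end, had 0 and 1 counts without curcumol and 229, 162 and 540 counts with it. Its pooled ratio was 649 with a 95% exact counting interval of 116 to 25650.1 (log2 fold change 8.85 ± 1.43, adjusted p = 0.0637). Lox, the lysyl oxidase that cross-links collagen and elastin, stood at 0.416 and 0 CPM without curcumol and 1.14, 3.31 and 14.0 CPM with it (log2 fold change 4.64 ± 1.97, adjusted p = 0.211). Both genes were at or near 0 without curcumol and highest in curcumol replicate 3. Its relative Loxl1, which acts on elastin, overlapped at 1.99 and 0.696 CPM without curcumol and 1.87, 1.75 and 7.02 CPM with it (log2 fold change 1.19 ± 1.03, adjusted p = 0.553). Serpinh1, the collagen chaperone HSP47 of the endoplasmic reticulum, overlapped as well, at 1.57 and 0.984 CPM without curcumol and 1.14, 1.65 and 2.72 CPM with it (log2 fold change 0.32 ± 0.87, adjusted p = 0.874). The range of these genes was therefore wide, from a gene near the floor without curcumol to one at about the same low level in both groups.

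Small proteoglycans and collagen-binding proteins held both genes that passed. Dcn, decorin, a small leucine-rich proteoglycan that coats collagen fibrils and is among the most abundant fibroblast transcripts (NCBI gene 13179), rose from 11.99 ± 0.769 to 71.1 ± 16.9 CPM (mean ± SD). Its libraries stood at 12.5 and 11.4 CPM without curcumol and 67.4, 56.3 and 89.4 CPM with it, so the untreated pair lay close together and every curcumol library was well above (log2 fold change 2.38 ± 0.27, adjusted p = 0.0464). Lum, lumican, a related proteoglycan that regulates fibril diameter (NCBI gene 17022), was not counted in any untreated sample. With curcumol it stood at 9.30, 10.2 and 15.8 CPM, which was at least 167-fold higher than the untreated floor (adjusted p = 0.0464). Without curcumol replicate 1, 2 or 3 the adjusted p of each was 0.0954, 0.104 and 0.106, and with the replicate number as a block it was 0.0874 for Dcn and 0.196 for Lum. Both kept a positive sign in every alternative run.

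Bgn, biglycan, another leucine-rich proteoglycan of the same family, stood at 4.92 and 2.21 CPM without curcumol and 8.74, 14.9 and 41.3 CPM with it (log2 fold change 2.39 ± 0.79, adjusted p = 0.122). Its groups did not overlap, and curcumol replicate 3 was far above the other libraries. Ogn (osteoglycin) and Islr, a further leucine-rich protein of mesenchymal cells, had no untreated count and stood at least 47.2-fold higher and at least 64.9-fold higher, with adjusted p = 0.0651 and 0.0644. Dpt (dermatopontin), which binds decorin, had 30 and 0 counts without curcumol and 73, 198 and 182 counts with it (log2 fold change 3.19 ± 1.75, adjusted p = 0.325). Fmod (fibromodulin) had 0 and 0 counts without curcumol and 5, 0 and 89 counts with it, so its mean rested on curcumol replicate 3.

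Elastic fibre genes had the lowest mean untreated sum of the 7 roles. Summed over the 6 genes they stood at 2.19 and 2.38 CPM without and 14.7, 25.7 and 93.9 CPM with curcumol, and Mfap4 made up nearly all of the untreated sum. Fbln2, a fibulin that links elastic fibres and basement membranes, had 0 and 0 counts without curcumol and 243, 382 and 837 counts with it, at least 171-fold higher (adjusted p = 0.0593). Mfap5, a microfibril protein, had 0 and 0 counts without curcumol and 134, 222 and 1208 counts with it, at least 184-fold higher (adjusted p = 0.0651). Both were found in every curcumol library, with replicate 3 highest. Eln, elastin itself, and Fbn1, the fibrillin of microfibrils, also had no untreated count and stood at least 64.4-fold higher and at least 58.6-fold higher, with adjusted p = 0.0730 and 0.0756. Fbln1 had 6 and 0 counts without curcumol and 67, 126 and 252 counts with it (log2 fold change 5.45 ± 1.69, adjusted p = 0.106). Mfap4 differed from these, with similar counts in both untreated libraries: it stood at 2.05 and 2.38 CPM without curcumol and 1.73, 4.79 and 15.4 CPM with it and overlapped (log2 fold change 1.51 ± 0.99, adjusted p = 0.417). For Eln, Fbn1, Mfap5 and Mfap4 the SD over the curcumol libraries was close to or above the mean, and replicate 3 lay far above the other curcumol libraries.

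**Figure D3:**
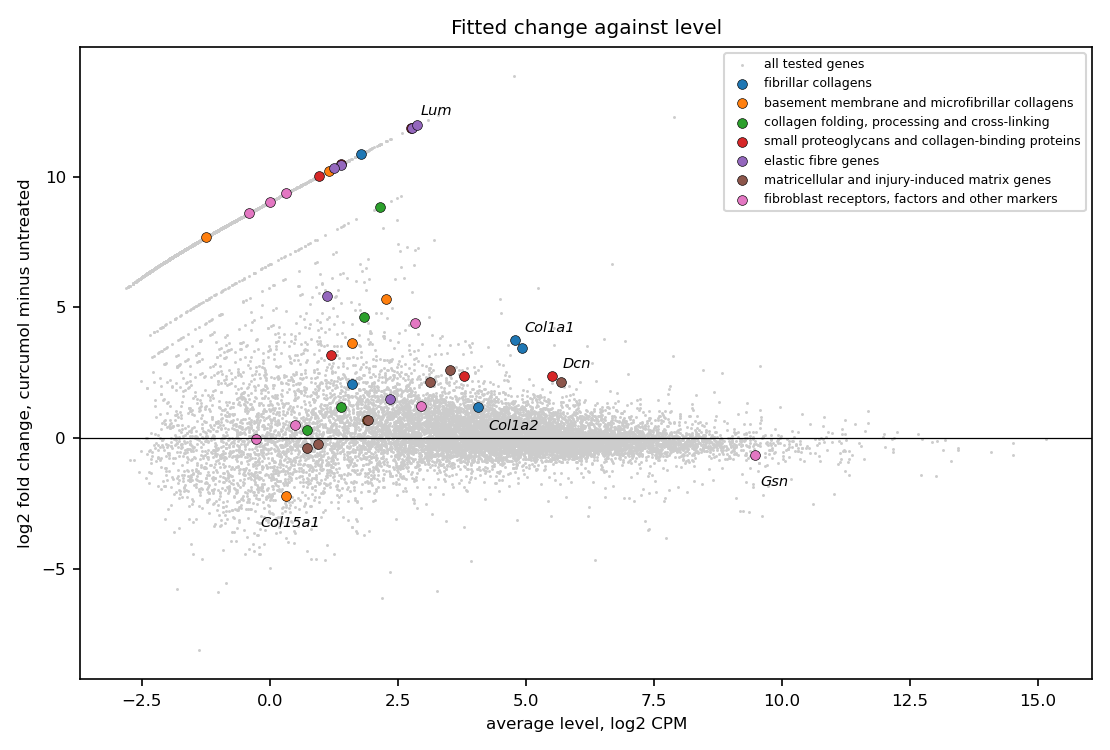
Log2 fold change (curcumol minus untreated, vertical axis) against average log2 CPM (horizontal axis) for all 14508 tested genes in grey and the 41 tested matrix genes coloured by role. The 13 tested genes without untreated counts lie on the upper curve. There the fitted fold is set by the prior count and is no measure of size. Dcn and Col1a1 lie above 0, and Gsn and Col15a1 below 0.

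The matricellular and injury-induced genes, which myofibroblasts switch on after infarction, overlapped between the groups for 4 of 6. Sparc, a collagen-binding glycoprotein, stood at 10.5 and 21.1 CPM without curcumol and 36.2, 46.7 and 155 CPM with it (log2 fold change 2.13 ± 0.71, adjusted p = 0.123). Fstl1, a secreted glycoprotein of the epicardium and fibroblasts, stood at 1.09 and 4.15 CPM without curcumol and 5.38, 11.4 and 37.9 CPM with it (log2 fold change 2.61 ± 1.02, adjusted p = 0.179). These were the genes of the group that did not overlap. Postn, periostin, the standard marker of activated cardiac fibroblasts, had 0 and 222 counts without curcumol and 216, 305 and 1100 counts with it (log2 fold change 2.15 ± 1.81, adjusted p = 0.541). It was thus absent from one untreated library and in the other as high as in curcumol replicate 1.

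Cthrc1, a marker of collagen-rich scar fibroblasts, stood at 2.56 and 2.45 CPM without curcumol and 1.56, 1.14 and 11.4 CPM with it, so both untreated libraries lay above curcumol replicates 1 and 2 and below replicate 3 (log2 fold change 0.70 ± 1.14, adjusted p = 0.780). Without curcumol replicate 3 its log2 fold change turned to -1.06. Comp, a cartilage and scar matrix protein, had 162 and 1 counts without curcumol and 34, 43 and 147 counts with it (log2 fold change -0.24 ± 1.65, adjusted p = 0.953). Cilp, which binds TGF-beta and is a marker of matrix-producing cardiac fibroblasts, had 0 and 145 counts without curcumol and 23, 0 and 160 counts with it (log2 fold change -0.37 ± 2.44, adjusted p = 0.952). The 4 overlapping genes of this role therefore gave no common direction, while Sparc and Fstl1 lay higher in every curcumol library. The signs of Cthrc1, Comp and Cilp turned under several alternatives.

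Receptors and transcription factors of fibroblasts were at low levels. Pdgfra, the receptor most used to mark cardiac fibroblasts, had 0 and 0 counts without curcumol and 29, 100 and 23 counts with it, at least 17.5-fold higher (adjusted p = 0.0730). Unlike most of the genes it was highest in curcumol replicate 2. Ddr2, a collagen receptor, and Meox1, a transcription factor of activated cardiac fibroblasts, had no untreated count and stood at least 30.0-fold higher and at least 23.7-fold higher, with adjusted p = 0.0651 and 0.0754. These receptors and factors were counted in every curcumol library and in neither untreated one. Tcf21, the transcription factor of epicardium-derived resting fibroblasts, overlapped with 0 and 62 counts without curcumol and 35, 10 and 53 counts with it (log2 fold change -0.0434 ± 1.80, adjusted p = 0.993). Thy1, a surface glycoprotein that T cells carry too, overlapped with 1 and 83 counts without curcumol and 38, 83 and 77 counts with it (log2 fold change 0.51 ± 1.52, adjusted p = 0.888).

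Pi16, a marker of a perivascular, progenitor-like fibroblast state, stood at 0.993 and 0 CPM without curcumol and 14.0, 6.01 and 16.3 CPM with it (log2 fold change 4.39 ± 1.65, adjusted p = 0.163). Mmp2, a gelatinase of fibroblasts that other cells also make, stood at 4.73 and 3.22 CPM without curcumol and 9.15, 8.95 and 13.5 CPM with it (log2 fold change 1.21 ± 0.51, adjusted p = 0.211). Every curcumol library lay above the untreated ones for both genes. Gsn, gelsolin, an actin-severing protein that macrophages express as well, was by far the highest of the 42 genes. It stood at 845 and 825 CPM without curcumol and 670.1, 537 and 627 CPM with it, 1.37-fold lower by the means (log2 fold change -0.63 ± 0.17, adjusted p = 0.0802). DESeq2 called it lower (adjusted p = 0.00443) and edgeR did not.

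Ordered by CPM per kilobase with curcumol, Gsn (230.5 ± 25.5) was followed by Dcn (40.4 ± 9.59), Sparc (34.5 ± 28.6), Col3a1 (9.12 ± 6.21), Bgn (8.95 ± 7.15) and Mfap5 (8.64 ± 10.01). From Dcn on, neighbours in this order differed by less than the larger of their SDs. The lowest were Col6a3 (0.0655), Col15a1 (0.0993) and Pdgfra (0.181).

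The untreated libraries disagreed with each other gene by gene. Genes whose larger untreated count was 30 to 1000 were compared. Of these, 10 of 23 matrix genes (43.5%) and 22.6% of the 6508 tested genes had at most 1 count in the other untreated library. The 10 were Col5a2, Col4a2, Col6a1, Dpt, Postn, Comp, Cilp, Thy1, Pi16 and Tcf21. They did not side with 1 library: Dpt, Comp and Pi16 were found in replicate 1 and the other 7 in replicate 2. Between pairs of curcumol libraries the same pattern held for 0 of 33, 0 of 31 and 2 of 32 matrix genes. Among tested genes it held for 0.644% to 1.05%. Among the 42 genes a count of 0 in an untreated library thus stood beside up to 222 counts in the other (Postn) at nearly equal depth. The lower bounds on folds given above cover counting error only and not this disagreement.

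**Figure D4:**
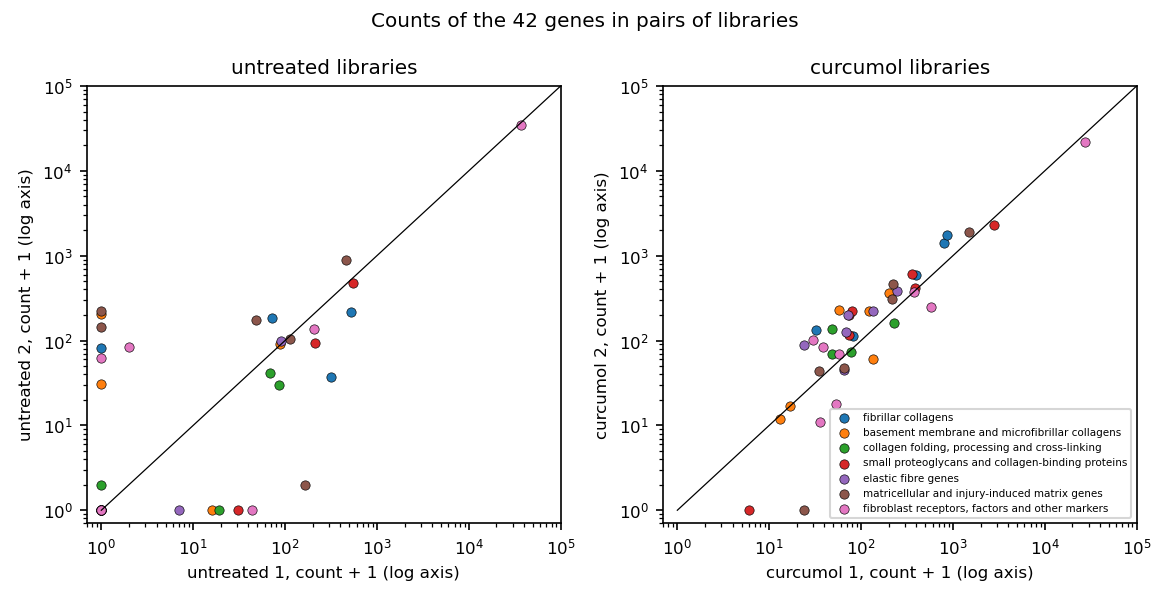
Counts of the 42 genes plus 1 on log axes, untreated replicate 1 against 2 (left) and curcumol replicate 1 against 2 (right), coloured by role, with the line of equal counts. On the left 10 genes with 30 or more counts in one library lie at 0 or 1 count in the other, on the right none.

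Genes of the collagen pathway outside the 42 gave no call in either direction. Of 27 genes of collagen synthesis and cross-linking, 24 were tested and none passed. Before adjustment 7 were higher and 1 lower at p under 0.05 (18.1% and 6.51% of all tested genes). Apart from Plod3, these 7 had no untreated count and could only come out higher. Broadly expressed ones were at high levels in both groups: P4hb, a subunit of prolyl hydroxylase, stood at 572 ± 17.9 and 616 ± 55.5 CPM (mean ± SD, untreated then curcumol) and Ppib, a prolyl isomerase, at 50.3 ± 4.51 and 60.1 ± 2.18 CPM. Those with the smallest p, Pcolce2, Bmp1, the procollagen C-proteinase, and P3h4, had no untreated count and 1.41 ± 0.195, 1.77 ± 1.25 and 0.932 ± 0.434 CPM with curcumol (adjusted p from 0.0651 to 0.0683). Among 32 further collagen chains, 22 had no untreated count. For 11 every curcumol library lay above the untreated ones and for 0 below. Over all genes with a count these shares were 31.1%, 30.2% and 6.73%. Of the 32 chains 14 were tested and none passed. At an unadjusted p under 0.05, 10 were higher and 0 lower (18.1% and 6.51% of all tested genes). Apart from Col11a2, these 10 had no untreated count and could only come out higher. The smallest p was that of Col18a1, a basement membrane collagen, at 0 and 3.93 ± 1.52 CPM (adjusted p = 0.0637), followed by Col9a3 and Col27a1. Col14a1, a fibril-associated collagen, was the most abundant of them in both groups, at 19.1 ± 10.8 and 36.0 ± 9.38 CPM.

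The TGF-beta pathway, the main inducer of collagen genes in fibroblasts, had 25 of 26 genes tested and none passed. At an unadjusted p under 0.05, 7 were higher and 1 lower (18.1% and 6.51% of all tested genes). Apart from Tgfbr2, Smad3 and Ltbp2, these 7 had no untreated count and could only come out higher. Ltbp4 and Ltbp1, which hold latent TGF-beta in the matrix, had no untreated count and 6.12 ± 1.67 and 1.72 ± 1.40 CPM with curcumol (adjusted p = 0.0597 and 0.0754). Skil, a repressor of SMAD signalling, stood at 132 ± 11.1 and 61.3 ± 21.6 CPM (adjusted p = 0.0665). The ligand Tgfb1 stood at 6.60 ± 0.132 and 4.19 ± 0.317 CPM (adjusted p = 0.395). For 12 of the 26 genes every curcumol library lay above the untreated ones and for 2 below (30.2% and 6.73% of all genes with a count). The summed level over the 26 genes was 1379 and 1477 CPM without and 1466, 1604 and 1265 CPM with curcumol, which overlap.

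Fibroblast and myofibroblast markers outside the 42 genes split by abundance. Of 27 such genes, 15 had no untreated count. For 18 every curcumol library lay above the untreated ones and for 4 below. Over all genes with a count these shares were 31.1%, 30.2% and 6.73%. Of the 27 genes 25 were tested and none passed. Before adjustment 17 were higher and 5 lower at p under 0.05 (18.1% and 6.51% of all tested genes). Apart from Lamc1, Vcam1 and Timp3, these 17 had no untreated count and could only come out higher. The 4 below were Vim, Ecm1, Htra3 and Lsp1, of which Vim, an intermediate filament of mesenchymal cells and leukocytes, stood at 992 ± 162 and 752 ± 103 CPM and Lsp1, a leukocyte actin-binding protein, at 1055 ± 24.4 and 836 ± 87.6 CPM. Dpep1, Smoc2 and Timp3 had the smallest p: Dpep1 had no untreated count and 6.94 ± 3.19 CPM with curcumol, Smoc2 0 and 4.05 ± 1.44 CPM, and Timp3 0.0240 ± 0.0339 and 9.83 ± 6.36 CPM (adjusted p from 0.0597 to 0.0640). Acta2, the smooth muscle actin that defines myofibroblasts, overlapped at 24.6 and 14.3 CPM without curcumol and 9.50, 12.7 and 22.6 CPM with it. Fn1, a matrix protein that macrophages also make, overlapped too, at 500.3 and 400.2 CPM without curcumol and 612, 786 and 398 CPM with it. The summed level over the 27 genes was 4920 and 4926 CPM without and 4372, 4341 and 3945 CPM with curcumol. It was lower in every curcumol library (exact permutation p = 0.1, the smallest possible), and Ecm1 made up the largest part of it.

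For several other cell types that the gate should leave out, the summed marker level lay higher in every curcumol library, beside the matrix genes. The counts of separated markers that follow stand against 30.2% of all genes with a count. Over 10 endothelial markers the summed level was 28.0 and 31.5 CPM without and 73.2, 135 and 100.1 CPM with curcumol, with 9 of 10 genes separated upward, none called, and Cdh5, Tek, Egfl7 and Cldn5 without untreated counts. For 9 mural markers it was 14.2 and 0 CPM without and 20.3, 33.0 and 37.0 CPM with curcumol, with 4 of 9 separated upward, Rgs5, a pericyte gene, called higher (adjusted p = 0.0464) and 6 genes, Rgs5 among them, without untreated counts. For 11 cardiomyocyte markers it was 26.3 and 62.1 CPM without and 120.5, 141 and 143 CPM with curcumol, with 9 of 11 separated upward, none called, and Ttn and Ryr2 without untreated counts. For 10 neutrophil markers it was 359 and 396 CPM without and 3605, 1683 and 3297 CPM with curcumol, with all 10 separated upward, Ngp and Camp called higher, and Ly6g and Camp without untreated counts.

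B cell markers summed to 62.6 and 49.5 CPM without and 139, 98.0 and 136 CPM with curcumol, with 7 of 7 separated upward, none called and Pax5 without untreated counts, and T and NK cell markers to 42.2 and 43.0 CPM without and 52.1, 109 and 83.8 CPM with curcumol, with 2 of 9 separated upward, a share below that of all genes, none called and Ncr1 without untreated counts. The 5 epicardial or mesothelial markers in the table summed to 2.10 and 0 CPM without and 0.243, 1.58 and 2.64 CPM with curcumol, with none separated or called and only Upk3b counted without curcumol. Among the 12 macrophage markers 6 were separated upward and 2 downward and none was called. The order of the curcumol libraries differed between lists: the 41 matrix genes were highest in replicate 3, endothelial markers in replicate 2 and neutrophil markers in replicate 1. The part of these cells in the levels of the matrix genes was not tested.

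**Figure D5:**
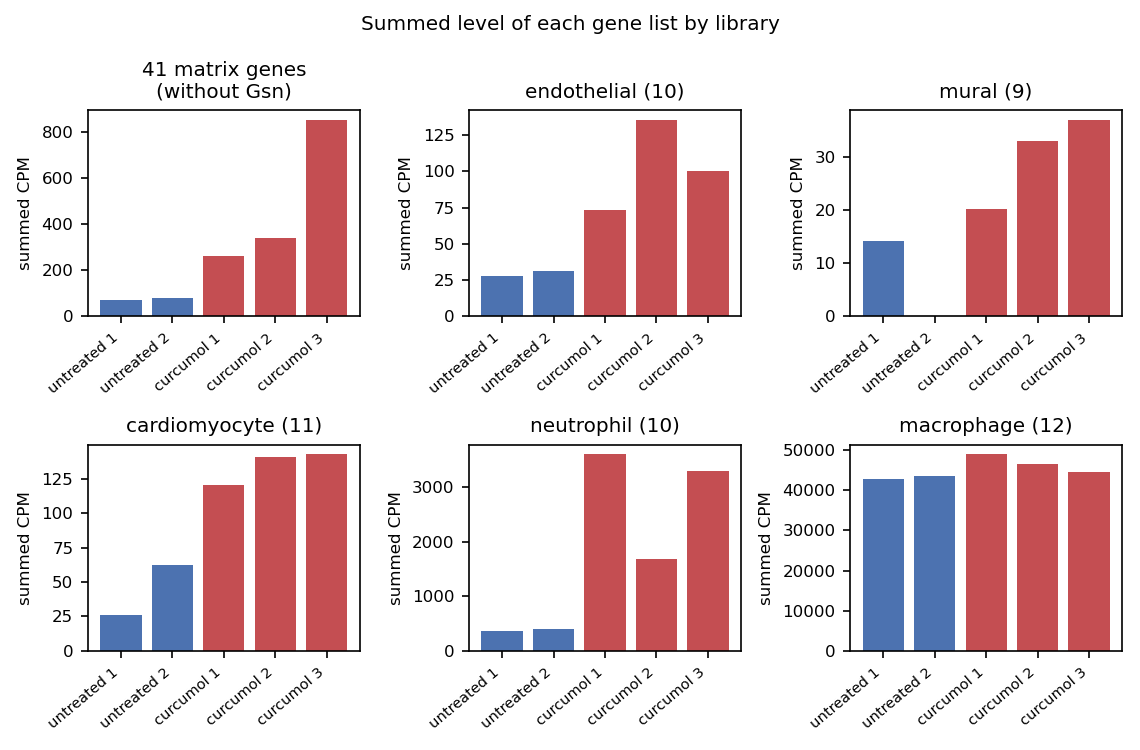
Summed CPM of 6 gene lists in each library (bars, blue untreated, red curcumol; each vertical axis starts at 0 and has its own scale). The 41 matrix genes reach 852 CPM in curcumol replicate 3 against 71.4 and 81.1 CPM without curcumol, while the macrophage sum stays between 42846 and 48992 CPM.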

How the data were processed

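Read counts per gene were analysed from bulk RNA sequencing of sorted cardiac CD45+CD64+ cells, 2 samples without and 3 with curcumol. The authors deposited raw, whole-number counts. The submitters' processing notes name fastp, HISAT2, HTSeq and Bowtie2; the sources used here do not give versions, build or annotation. The library kit is named in 2 ways (a VAHTS kit in the labels' protocols, a stranded TruSeq kit in the series' design text), so strandedness is not settled, and reads of overlapping genes on opposite strands cannot be told apart. The 42 genes and all lists were chosen with earlier results of these data known.

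The groups were compared with edgeR 4.0.16 (R 4.3.3) by its quasi-likelihood test: TMM factors, filterByExpr (minimum count 10), a design of group alone, two-sided tests, Benjamini-Hochberg adjustment over 14508 genes. Each SE is the log2 fold change over the root of F; the script was tested on simulated data. DESeq2 1.42.0 and limma-voom (limma 3.58.1) were alternatives, with other scalings, filters, a replicate block and each sample left out. CPM uses total counts (39768705 to 43315822); folds against a group without counts use a floor of 3 counts per library. Lengths are the longest coding transcripts of GENCODE M21. Values in every library were given for genes past the threshold and the 3 most abundant genes of each role. They were also given for overlapping genes and genes with a lower mean. Other lists name called genes and the 3 smallest p. Further genes were singled out after their values were seen (P4hb, Ppib, Col14a1, Tgfb1, Acta2, Fn1, Vim, Lsp1, Mrc2, Lair1, Ctsk, Csf1r, Lyz2, and others of the 42).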

Additional observations from a re-analysis of the deposited data

How the results depend on the processing

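All genes past the threshold numbered 30, and 2656 with DESeq2, 1661 with limma-voom, 416 without a filter, 98 with a CPM of at least 1 in 2 samples, 10 with total counts, 45 with a replicate block and 30 with RLE factors. Leaving out 1 library gave 0 to 3531 (0 without curcumol replicate 2, 3531 without untreated replicate 2). Of the 42 matrix genes 2 passed, and 26 with DESeq2, 18 with limma-voom, 10 without a filter, 3 with the CPM filter, 0 with total counts, 0 with the replicate block, and 0 to 27 with 1 library left out (0 without curcumol replicate 1, 2 or 3, 25 or 27 without untreated replicate 1 or 2, where the lone untreated sample is assumed to vary like the others). The labels do not say whether the replicate numbers pair the samples. Deviations from the group means correlated at 0.0257 for number 1 and -0.0267 for number 2. With 2 untreated samples their deviations mirror each other, so these values cannot settle whether the numbers mark a pairing.

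The genes separated upward numbered 27 to 33 and downward 2 to 3 with 1 library left out, and 27 and 2 with TMM-scaled CPM. Those without untreated counts numbered 14 to 21, and 15 at up to 3 counts per untreated library. The summed difference of the 42 genes (184 CPM) was 52.1 CPM with TMM scaling, 407 CPM without Gsn, an alternative chosen after seeing the data, and -7.98 to 294 CPM with 1 library left out, negative without curcumol replicate 3. Over 29 fold changes and the alternatives, 348 values in all, 269 kept direction and side of the threshold, 48 newly passed, 10 no longer passed and 21 turned. With limma-voom Cthrc1 (-0.0729), Comp (1.83), Cilp (0.40) and Tcf21 (2.15) turned, with the replicate block Serpinh1 (-0.0301), Cthrc1 (-1.08), Comp (1.10) and Tcf21 (1.54), and with total counts Tcf21 (0.12). With 1 library left out the ranges were Col4a2 -0.29 to 10.51, Serpinh1 -0.0557 to 0.73, Cthrc1 -1.06 to 1.17, Comp -1.21 to 5.94, Cilp -2.74 to 8.93, Thy1 -0.47 to 5.78 and Tcf21 -1.04 to 8.03. Other fold changes kept their sign but moved widely, among them Col3a1 2.61 to 5.69, Col5a2 0.87 to 10.51, Col6a1 2.63 to 10.65, Lox 3.19 to 10.91, Postn 1.09 to 12.06 and Pi16 3.42 to 11.92. For Col5a2, Col6a1, Lox, Postn and Pi16 the highest value leaves an untreated library without a count of the gene, where the fitted fold is no measure of size. The other causes were not tested.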

Other observations

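Genes by which leukocytes bind or degrade collagen, 18 in the table and not described above, had 15 members tested and none past the threshold. Before adjustment 3 were higher and 5 lower at p under 0.05 (18.1% and 6.51% of all tested genes). Apart from Mrc1, these 3 had no untreated count and could only come out higher. Mrc1, the mannose receptor, which takes up collagen fragments, stood at 156 ± 8.87 and 596 ± 169 CPM (mean ± SD without, then with curcumol; adjusted p = 0.0637). Going the other way, Plaur, which binds urokinase, had 485 ± 71.1 and 176 ± 28.6 CPM (adjusted p = 0.0523) and Oscar, a collagen-binding receptor of myeloid cells, had 6.06 ± 2.83 and 0.664 ± 0.207 CPM (adjusted p = 0.0689). Ctsk, a collagen-degrading cathepsin, stood at 584 and 231 CPM without curcumol and 83.8, 192 and 113 CPM with it. Mrc2, the collagen receptor Endo180 of fibroblasts, had no untreated count and 0.122, 1.12 and 1.08 CPM with curcumol. Lair1, an inhibitory collagen receptor of leukocytes, overlapped at 245 and 327 CPM without curcumol and 289, 344 and 309.6 CPM with it.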
